A study of Mus musculus with 4 samples.

Results

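The clustered protocadherins were the 58 genes whose names start with Pcdha, Pcdhb or Pcdhg, pseudogenes left out, of 56748 gene identifiers in the count matrices. They comprised 14 Pcdha, 22 Pcdhb and 22 Pcdhg genes, chosen by name and not by any measured value. Single-nucleus RNA-seq was made from the hippocampus of male mice 14 h after the last cycle of repeated social defeat (RSD), in which an aggressive CD-1 male enters the cage of the test mice, or from undisturbed controls. Each of the 8 conditions was 1 pool of nuclei from 3 mice, carried through split-pool barcoding. The data used here hold 4 sublibraries, where the study's supplement describes 8. There were 4 arms, each with a control pool and an RSD pool. Vehicle and PLX5622 pools were C57BL/6 mice fed either plain chow or chow with PLX5622, an inhibitor of the colony-stimulating factor 1 receptor that depletes microglia. The IL-1R1+/+ pools were Cre-negative mice bred in-house, and the nIL-1R1-/- pools were mice in which Vglut2-Cre deleted the interleukin-1 receptor gene Il1r1, that is, in cells that express or once expressed Vglut2 (Slc17a6) and not in all neurons. Mice within a pool cannot be separated, so p-values below measure the spread between pools.

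Clustered protocadherins are cadherin-family adhesion proteins of the neuronal surface. Each neuron switches on a small combination of them by choosing among many promoters, a choice that involves the DNA-looping protein CTCF and cohesin, and matching combinations on touching membranes let a neuron recognise its own branches. In Pcdha and Pcdhg, each variable first exon is spliced to constant exons shared by the whole family, whereas each Pcdhb gene is a single exon with no shared tail. The C-type members Pcdhac1, Pcdhac2, Pcdhgc3, Pcdhgc4 and Pcdhgc5 lie at the far end of their families and are regulated apart from the others.

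Of 57350 deposited barcodes, 516 exceeded 20% mitochondrial UMIs (unique molecular identifiers, one per captured transcript) and 56834 were kept. No barcode occurred in more than 1 pool. Depth differed widely between pools, from 7534594 to 58081835 UMIs and from a median of 598 to 5012 UMIs per nucleus, and both PLX5622 pools were the shallowest. Nuclei were clustered without the 58 genes, and classes were named from fixed markers, which gave 10443 DG-like nuclei (dentate gyrus granule neurons), 9552 CA1-like, 6172 CA2/3-like and 4881 INH-like (inhibitory) nuclei. Each of these classes carried the highest sum of its own marker list, for example 2793 to 3064 CPM (UMIs scaled to the same total in every pool and class) of the DG list in DG-like nuclei against 464 to 630 CPM in INH-like nuclei. The inhibitory list was not confined to its class, with 1840 to 2672 CPM in DG-like nuclei. Between 25.7% and 43.8% of each pool stayed unnamed. In the DG-like, CA1-like and CA2/3-like classes, shallow clusters held 81.1 to 92.1% of the nuclei of the PLX5622 pools, so different clusters made up most of these classes in different pools. The RSD IL-1R1+/+ pool held 270 of the 290 medium spiny-like nuclei of the series, a neuron type of the striatum. Il1r1 in DG-like nuclei was 62.2 and 29.8 CPM in the control and RSD IL-1R1+/+ pools and 11.4 and 8.73 CPM in the control and RSD nIL-1R1-/- pools, so it was lower in both pools labelled nIL-1R1-/-.

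All 58 genes lie in a row on the plus strand of chromosome 18, from 37063237 to 37975014 in GRCm39 (mm39), in the order Pcdha, Pcdhb, Pcdhg. Because every Pcdha gene model ends at the same constant exons, as does every Pcdhg model, up to 27 genes overlap at a single position, and a nuclear read from an intron there belongs to many of them. The UMIs in the matrices followed this overlap. Pcdha10 had 38130 UMIs, Pcdha3 12675 and Pcdha1 720, and these 3 are the Pcdha genes that have the lowest Ensembl identifier of all overlapping genes over some stretch, of 182461, 59098 and 15921 bases. Together they held 91.8% of the 56101 Pcdha UMIs, while the other 11 members had 112 to 1492 UMIs each. In Pcdhg the same held for Pcdhga10, Pcdhgb2, Pcdhgc4 and Pcdhga9, with 19909, 18134, 5095 and 4566 UMIs over stretches of 67895, 47000, 27095 and 10068 bases, which made up 75.7% of the 63020 Pcdhg UMIs. Per kb of such stretch, the levels were 209 UMIs for Pcdha10, 215 for Pcdha3, 45.2 for Pcdha1, 293 for Pcdhga10, 386 for Pcdhgb2, 188 for Pcdhgc4 and 454 for Pcdhga9. How the deposited counts assigned reads that fit several genes is not given in the sources used here. A level of a single Pcdha or Pcdhg gene is therefore uncertain, above all for these 7, and the sums over a family are the firmer measure. The Pcdhg sum has a limit of its own. Gm38666, a predicted gene that is not a member, has the lowest identifier over 381972 bases. These include the start of Pcdhg, from Pcdhga1 (37794846) up to Pcdhgb2 (37822866). Whether Pcdhg reads there were counted for Gm38666 was not tested.

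**Figure D1:**
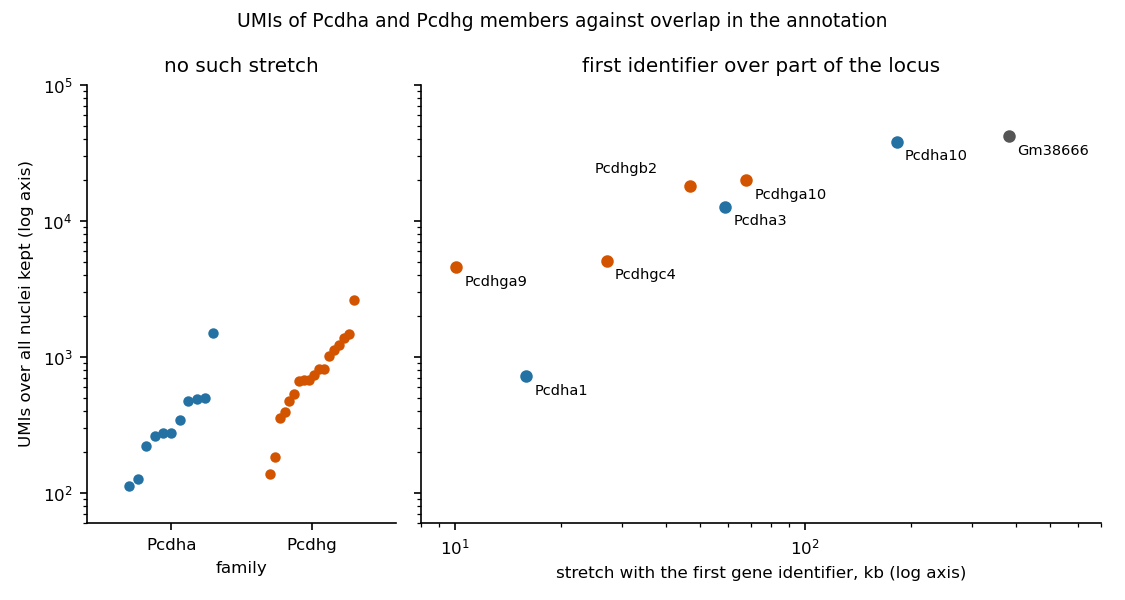
UMIs over all kept nuclei (log axis) of each Pcdha (blue) and Pcdhg (orange) gene, at left for genes without a stretch of lowest identifier and at right against the length of that stretch in kb (log axis), with the transcript Gm38666 in grey. The genes with a stretch held 720 to 38130 UMIs, and the genes without one 112 to 2617.

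The Pcdhb genes do not share exons with other families and are, apart from the overlapping models of Pcdhb9 with Pcdhb10 and Pcdhb21 with Pcdhb22, separate from each other, although all of them lie within the span of the predicted gene Gm38666 (37102969 to 37966349). They had 9512 UMIs in all. Per kb of exon of its own, Pcdhb17 had 239 UMIs, Pcdhb21 187, Pcdhb15 169, Pcdhb22 148 and Pcdhb14 140, against 3.48 for Pcdhb1, the first of the row, which had 9 UMIs in 56834 nuclei. The 11 Pcdhb genes farther along the chromosome, from Pcdhb12 to Pcdhb22, had 133 UMIs per kb and the 11 nearer to Pcdha, from Pcdhb1 to Pcdhb11, had 60.7. So the level per length was higher towards the Pcdhg side, with Pcdhb12 and Pcdhb13 at 76.1 and 58.8 UMIs per kb as the low members of that stretch.

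**Figure D2:**
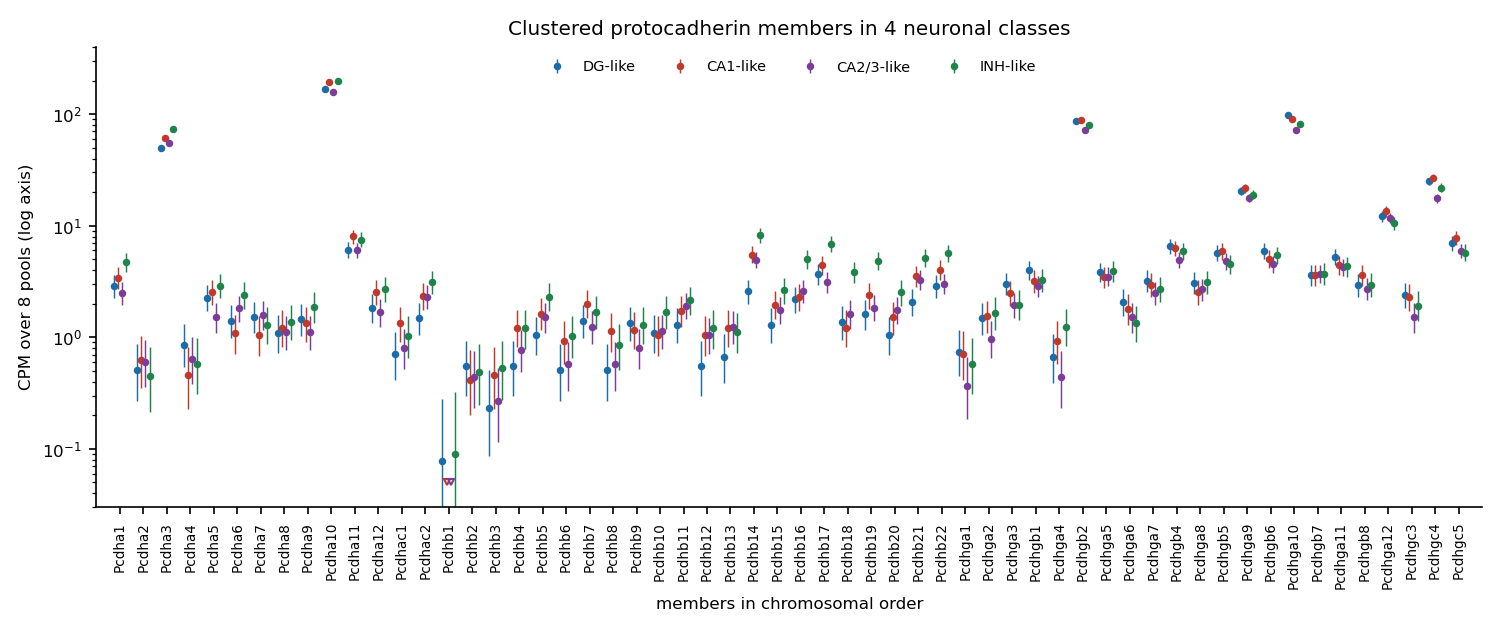
CPM of each of the 58 genes (log axis) in chromosomal order, summed over the 8 pools for 4 neuronal classes, with 95% exact Poisson intervals that cover counting error only. Pcdha10, Pcdha3, Pcdhgb2 and Pcdhga10 stand above the rest in every class, INH-like nuclei lie highest over most of Pcdhb14 to Pcdhb22, and open triangles mark Pcdhb1 at 0 UMIs in CA1-like and CA2/3-like nuclei.

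The order of the members within a family was much the same in all 4 classes. Spearman's rho between the classes' CPM was 0.83 to 0.95 over the 14 Pcdha genes, 0.89 to 0.96 over the 22 Pcdhb genes and 0.97 to 0.99 over the 22 Pcdhg genes. These are correlations across genes of the same libraries and the same annotation, and gene length and overlap enter both axes, so they carry no p-value.

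Next, the families were compared between the 4 large neuronal classes within each pool. The largest difference on the log2 scale was in Pcdhb, whose summed level was highest in INH-like nuclei and lowest in DG-like nuclei. In INH-like nuclei the Pcdhb sum was 63.7 CPM in the Control Vehicle pool, 34.9 in Control PLX5622, 56.5 in Control IL-1R1+/+ and 65.4 in Control nIL-1R1-/-, and 55.0, 60.8, 57.7 and 58.0 CPM in the RSD pools of the same arms. In DG-like nuclei it was 25.7, 20.8, 30.6 and 32.1 CPM in those control pools and 23.8, 30.8, 25.6 and 30.4 CPM in the RSD pools. The INH-like level exceeded the DG-like level in every pool, and the lowest INH-like pool lay above the highest DG-like pool. The means were 56.5 ± 9.44 CPM in INH-like, 38.5 ± 8.36 in CA1-like, 34.0 ± 3.88 in CA2/3-like and 27.5 ± 4.07 in DG-like nuclei (SD, n = 8 pools). On the log2 scale the INH-like sum was higher by 1.03 ± 0.19 than the DG-like, by 0.72 ± 0.19 than the CA2/3-like and by 0.56 ± 0.23 than the CA1-like sum, each in 8 of 8 pools. The CA1-like and CA2/3-like sums were also above the DG-like sum in 8 of 8 pools, by 0.47 ± 0.22 and 0.31 ± 0.15, whereas CA2/3-like and CA1-like nuclei differed by less than the spread between pools (-0.15 ± 0.23). Among the small neuronal classes, the Pcdhb sum over all pools was 52.7 CPM (43.4 to 63.4, 95% exact Poisson interval) in Slc17a6 excitatory-like, 45.5 CPM (32.6 to 61.7) in medium spiny-like and 17.8 CPM (7.70 to 35.2) in Cajal-Retzius-like nuclei, the last from 8 UMIs, beside 60.4 CPM (57.2 to 63.7) in INH-like and 28.5 CPM (26.5 to 30.6) in DG-like nuclei. Some unnamed clusters stood above the INH-like clusters, which had 57.4 to 62.9 CPM of Pcdhb over all pools. Clusters of 963 and 473 nuclei that scored best for CA1 markers had 69.3 and 67.3 CPM. A cluster of 76 nuclei that scored best for CA2/3 had 124 CPM, with only 163 UMIs of all members together. A cluster of 1403 nuclei that scored best for INH had 76.75 CPM. The other unnamed clusters had 36.8 to 51.9 CPM. The cluster of 1403 nuclei stayed unnamed because markers of another list led it, and it may be inhibitory. The clusters that scored best for CA1 and CA2/3 did not meet the conditions for a name, so their type is uncertain. If those scores hold, a high Pcdhb sum was not confined to inhibitory nuclei. The same class order was seen in Gm38666, which is not a member and whose span holds every Pcdhb gene. Its means were 257 ± 69.1 CPM in INH-like, 206 ± 60.3 in CA1-like, 178 ± 43.0 in CA2/3-like and 129 ± 32.9 in DG-like nuclei. Whether the Pcdhb order is separate from that of Gm38666 was not tested. No p-value is given for sums over the members.

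Most single Pcdhb genes shared an end of this order, but not all followed it throughout. Of the 22, 16 had their highest level in INH-like nuclei and 15 their lowest in DG-like nuclei. The 16 include Pcdhb1, on 2 UMIs there. Pcdhb17 was lower in CA2/3-like than in DG-like nuclei (ratio 0.849) and Pcdhb18 lower in CA1-like than in DG-like nuclei (ratio 0.886). Pcdhb5, Pcdhb14, Pcdhb16, Pcdhb18, Pcdhb19, Pcdhb20 and Pcdhb21 were higher in INH-like than in DG-like nuclei in 8 of 8 pools, and no Pcdhb gene was lower in 8 of 8. How many of all genes show such orders was not counted, here or for the families below. These counts therefore cannot set a trait of the family apart from a difference between whole classes. Pcdhb14, the member with the most UMIs, stood at 9.95, 4.02, 7.16 and 10.9 CPM in INH-like nuclei of the control Vehicle, PLX5622, IL-1R1+/+ and nIL-1R1-/- pools and at 5.62, 5.40, 5.18 and 5.60 in their RSD counterparts. In DG-like nuclei its lowest pool was at 0, its median pool at 2.32 and its highest at 3.46 CPM, so the classes did not overlap. Summed over pools, the INH-like to DG-like ratio was 3.18 for Pcdhb14, 3.03 for Pcdhb19 and 2.80 for Pcdhb18, but 1.88 for Pcdhb17 and 1.98 for Pcdhb22, which were higher in 7 and 6 of 8 pools. The difference sat mainly in the members from Pcdhb12 to Pcdhb22, at 44.1 ± 6.45 CPM in INH-like and 19.5 ± 3.37 CPM in DG-like nuclei, against 12.4 ± 3.596 and 8.02 ± 2.14 CPM for Pcdhb1 to Pcdhb11. Pcdhb1 itself had 2 UMIs in DG-like, 2 in INH-like and none in CA1-like and CA2/3-like nuclei, which allows up to 0.154 and 0.124 CPM there (upper 95% exact Poisson limit). It was not detectable as different between classes at this depth.

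**Figure D3:**
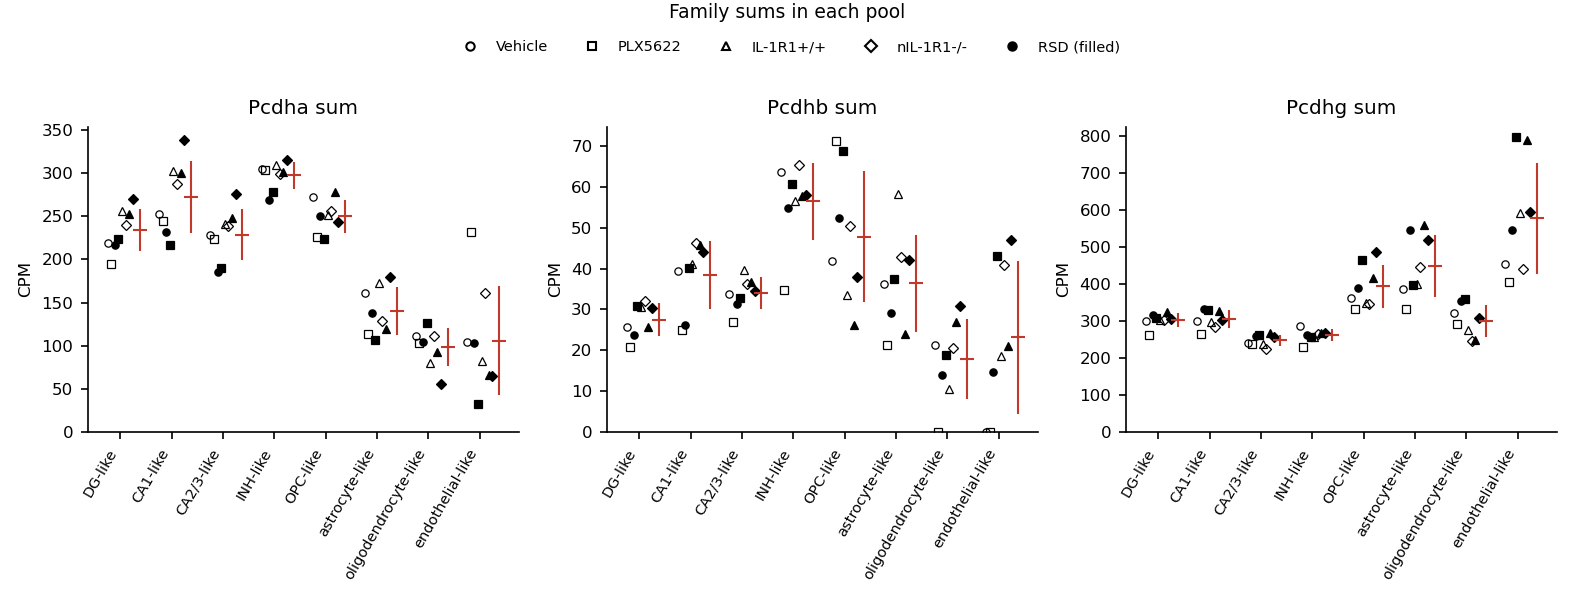
Summed CPM of Pcdha, Pcdhb and Pcdhg in each pool by class, open symbols for control and filled for RSD pools, with shapes for the 4 arms and red bars for the mean and SD over 8 pools. Of the 4 large neuronal classes Pcdhb is highest in INH-like nuclei, at 34.9 to 65.4 CPM, and Pcdhg in endothelial-like nuclei spreads from 405 to 797 CPM.

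Pcdha moved less between classes. Its sum was 298 ± 15.8 CPM in INH-like, 272 ± 41.8 in CA1-like, 234 ± 24.8 in DG-like and 229 ± 29.96 in CA2/3-like nuclei. INH-like nuclei were above DG-like nuclei by 0.35 ± 0.14 and above CA2/3-like nuclei by 0.39 ± 0.12 on the log2 scale in 8 of 8 pools, and CA2/3-like nuclei were below CA1-like nuclei in 8 of 8 (-0.25 ± 0.08). CA2/3-like and DG-like nuclei did not differ beyond the spread (-0.04 ± 0.15). Pcdha10, which carried most of the family's UMIs, was at 197 ± 7.52 CPM in INH-like and 163 ± 15.9 CPM in DG-like nuclei, and Pcdha3 at 73.4 ± 8.90 and 49.4 ± 9.25 CPM. Pcdha1, Pcdha3 and Pcdha10, the 3 members with a stretch of lowest identifier, were the Pcdha genes higher in INH-like than in DG-like nuclei in all 8 pools. Without them the INH-like excess over DG-like nuclei in the Pcdha sum was 0.21 on the log2 scale. Pcdha11, the next by UMIs, was 7.04 ± 2.21 CPM in INH-like and 5.74 ± 1.12 CPM in DG-like nuclei, a difference within the spread between pools. Pcdha4 had the fewest UMIs of the family, with 11 to 22 in each class.

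Pcdhg had another order, with DG-like and CA1-like nuclei close together (a log2 difference of 0.01 ± 0.06) and CA2/3-like and INH-like nuclei below them. Its sum was 302 ± 18.3 CPM in DG-like, 304 ± 24.0 in CA1-like, 248 ± 15.1 in CA2/3-like and 261 ± 16.1 CPM in INH-like nuclei. The CA2/3-like sum was below the DG-like sum (-0.29 ± 0.08) and the CA1-like sum (-0.30 ± 0.07) in 8 of 8 pools, as was the INH-like sum (-0.21 ± 0.07 and -0.22 ± 0.11). INH-like and CA2/3-like nuclei did not differ beyond the spread between pools (0.08 ± 0.12, INH-like higher in 5 of 8). So in INH-like nuclei Pcdha and Pcdhb were above their DG-like levels while Pcdhg was below, in every pool. Of the 22 Pcdhg genes, 15 had their lowest level in CA2/3-like nuclei, and Pcdhga3, Pcdhga10, Pcdhgb2 and Pcdhgc4 were lower there than in DG-like nuclei in 8 of 8 pools. The share over all genes was not counted here either. Pcdhga10 was at 97.4 ± 6.42 CPM in DG-like and 73.4 ± 2.80 CPM in CA2/3-like nuclei, and its highest CA2/3-like pool (77.9) lay below its lowest DG-like pool (85.7). Pcdhgb2 was at 88.1 ± 6.45 and 77.4 ± 8.65 CPM and Pcdhga9 at 20.5 ± 3.16 and 18.1 ± 3.85 CPM, with pools that overlapped. Pcdhga1, the first of the family, was rarest, with 11 to 19 UMIs in each class, and it starts where Gm38666 has the lowest identifier.

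The C-type shares had no class pattern that held in every pool, although Pcdhgc4 itself was lower in CA2/3-like than in DG-like nuclei (ratio 0.703) and lower in INH-like than in CA1-like nuclei (ratio 0.815) in 8 of 8 pools. Pcdhac1 and Pcdhac2 together made up 0.93% of the Pcdha UMIs in DG-like, 1.53% in CA1-like, 1.35% in CA2/3-like and 1.18% in INH-like nuclei (means over 8 pools), and the 3 Pcdhg C-type members 11.1, 11.8, 10.0 and 11.1% of the Pcdhg UMIs. No pair of classes differed in the same direction in 8 of 8 pools. Pcdhac2 was at 1.53 ± 0.62 CPM in DG-like and 2.66 ± 1.08 CPM in INH-like nuclei, and Pcdhac1 at 0.64 ± 0.43 and 0.87 ± 0.87 CPM. Pcdhgc4, which is required for the survival of cortical interneurons during development, was at 24.1 ± 4.29 CPM in DG-like, 26.6 ± 6.46 in CA1-like, 18.3 ± 2.96 in CA2/3-like and 21.6 ± 4.89 CPM in INH-like nuclei, so it was not highest in inhibitory nuclei. Pcdhgc5 was at 7.28 ± 2.48 CPM in CA1-like and 5.15 ± 1.40 CPM in CA2/3-like nuclei, and Pcdhgc3 at 2.75 ± 0.99 CPM in DG-like and 1.32 ± 0.67 CPM in CA2/3-like nuclei. Because Pcdhgc4 carries a stretch of lowest identifier and Pcdhac1 and Pcdhac2 lie under that of Pcdha10, these shares depend on how overlapping reads were assigned.

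Outside the 4 large neuronal classes the families parted. The Pcdha sum was 140 ± 28.0 CPM in astrocyte-like, 98.1 ± 21.9 in oligodendrocyte-like, 106 ± 63.3 in endothelial-like and 250 ± 19.3 CPM in OPC-like nuclei (oligodendrocyte precursors), the last within the range of the neuronal classes. The Pcdhg sum was 448 ± 83.7 CPM in astrocyte-like, 393 ± 58.0 in OPC-like, 301 ± 43.3 in oligodendrocyte-like and 577 ± 150 CPM in endothelial-like nuclei. In endothelial-like nuclei every pool, from 405 to 797 CPM, was above every pool of the 4 neuronal classes in Pcdhg. Microglia-like nuclei, of which both PLX5622 pools had none, held 32 Pcdha, 5 Pcdhb and 107 Pcdhg UMIs in 196 nuclei. The Pcdhb sum was 17.9 ± 9.70 CPM in oligodendrocyte-like and 47.9 ± 16.1 CPM in OPC-like nuclei. These classes are small, so single members are not described in them.

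In single nuclei the genes were sparse. With every nucleus thinned to 1000 UMIs, at least 1 UMI of any member was found in 42.2% of DG-like (41.0 to 43.4, 95% exact binomial interval), 45.4% of CA1-like (44.1 to 46.8), 39.2% of CA2/3-like (37.8 to 40.7) and 46.4% of INH-like nuclei (44.7 to 48.1), against 24.9% (18.7 to 31.9) of microglia-like nuclei. Any Pcdhb gene was found in 2.61% (2.25 to 3.02) of DG-like, 3.87% (3.36 to 4.42) of CA1-like, 3.00% (2.52 to 3.55) of CA2/3-like and 5.75% (4.99 to 6.60) of INH-like nuclei, and in 1.13% (0.137 to 4.02) of microglia-like nuclei. Thinned likewise, any member was found in 43.7% of astrocyte-like, 52.6% of OPC-like, 29.6% of oligodendrocyte-like and 49.4% of endothelial-like nuclei. For any Pcdhb gene these shares were 3.84, 3.74, 2.39 and 3.37%. Detection was thus not particular to neurons. Over all nuclei the INH-like Pcdhb share was above that of the other 3 neuronal classes beyond counting error, which does not cover the spread between pools. By pool it was 4.95 to 7.61% in INH-like and 2.68 to 5.30% in CA1-like nuclei, which overlapped. DG-like pools at 1.15 to 3.26% and CA2/3-like pools at 1.76 to 3.91% lay below the INH-like pools. Thinning left out 3517 DG-like, 4251 CA1-like, 1710 CA2/3-like, 1527 INH-like and 19 microglia-like nuclei with fewer UMIs, and the median depth before thinning was 2450, 2771, 3744, 3556 and 1798 UMIs in those that stayed. Unthinned, any Pcdhb gene was found in 6.19, 8.02, 12 and 16.9% of DG-, CA1-, CA2/3- and INH-like nuclei and in 2.04% of microglia-like nuclei. More than 1 Pcdhb gene was seen in 0.527% of DG-like and 5.02% of INH-like nuclei unthinned, with at most 11 in a single nucleus. With nuclei thinned to 1000 UMIs these shares were 0.101 and 0.328%, on 7 and 11 nuclei. The combination that a nucleus had chosen could not be read at this depth.

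The Pcdha level moved with the pair of arms to which a pool belonged, Vehicle and PLX5622 or IL-1R1+/+ and nIL-1R1-/-. The Pcdha sum in the 4 IL-1R1+/+ and nIL-1R1-/- pools was 241 to 270 CPM in DG-like, 288 to 339 in CA1-like and 239 to 276 CPM in CA2/3-like nuclei, and in the 4 Vehicle and PLX5622 pools it was 195 to 224, 217 to 253 and 185 to 228 CPM, without overlap. In INH-like nuclei the ranges overlapped (299 to 315 and 269 to 304 CPM). Pcdhb was also without overlap in CA1-like (41.0 to 46.3 against 25.1 to 40.2 CPM) and CA2/3-like nuclei (34.5 to 39.7 against 26.8 to 33.8), and Pcdhg overlapped in all 4 classes. How many of all genes separate the pairs of arms in this way was not counted, so this is not shown to be a trait of the families. The labels name no batch. Mouse line, chow and any batch cannot be told apart here. Depth differed too. The median per nucleus was 598 to 2563 UMIs in the 4 Vehicle and PLX5622 pools and 2580 to 5012 UMIs in the 4 IL-1R1+/+ and nIL-1R1-/- pools, without overlap. In total UMIs the pairs of arms overlapped, with 7534594 to 15154151 in 3 of the 4 Vehicle and PLX5622 pools. The Control Vehicle pool, with 38690912 UMIs, exceeded 3 of the 4 IL-1R1+/+ and nIL-1R1-/- pools (24531457 to 37763288). The part of depth in this difference was not tested. The tests below compare pools within an arm or within a pair of arms.

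The effect of RSD was tested gene by gene over the 4 control and RSD pairs, with the arm as a block, by edgeR's quasi-likelihood test with Benjamini-Hochberg adjustment over all genes tested in a class. Enough UMIs for the test were present for 23 members in DG-like, 22 in CA1-like, 22 in CA2/3-like and 27 in INH-like nuclei, and the rest, mostly Pcdhb and Pcdha genes, were too rare. No member passed an adjusted p of 0.05 in any of the 4 classes, where 0.0764% of all tested genes did in DG-like, 0.0358% in CA1-like, 0.382% in CA2/3-like and 0.00834% in INH-like nuclei. At an unadjusted p under 0.05 there were 2 members in DG-like, 1 in CA1-like, 2 in CA2/3-like and 1 in INH-like nuclei, which is 8.7, 4.55, 9.09 and 3.7% of those tested against 11.6, 15.7, 15.7 and 8.78% of all genes, and DESeq2 called 0 members as well. The median log2 change of the members was 0.10 in DG-like, 0.21 in CA1-like, 0.15 in CA2/3-like and 0.03 in INH-like nuclei, beside medians of 0.00, 0.01, 0.00 and 0.00 over all genes. In none of the classes did a member have all 4 RSD pools above or all 4 below the control pools. Over all genes this held upwards for 1.83% in DG-like, 2.49% in CA1-like, 1.82% in CA2/3-like and 1.55% in INH-like nuclei, and downwards for 2.06, 2.21, 2.82 and 1.98%.

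**Figure D4:**
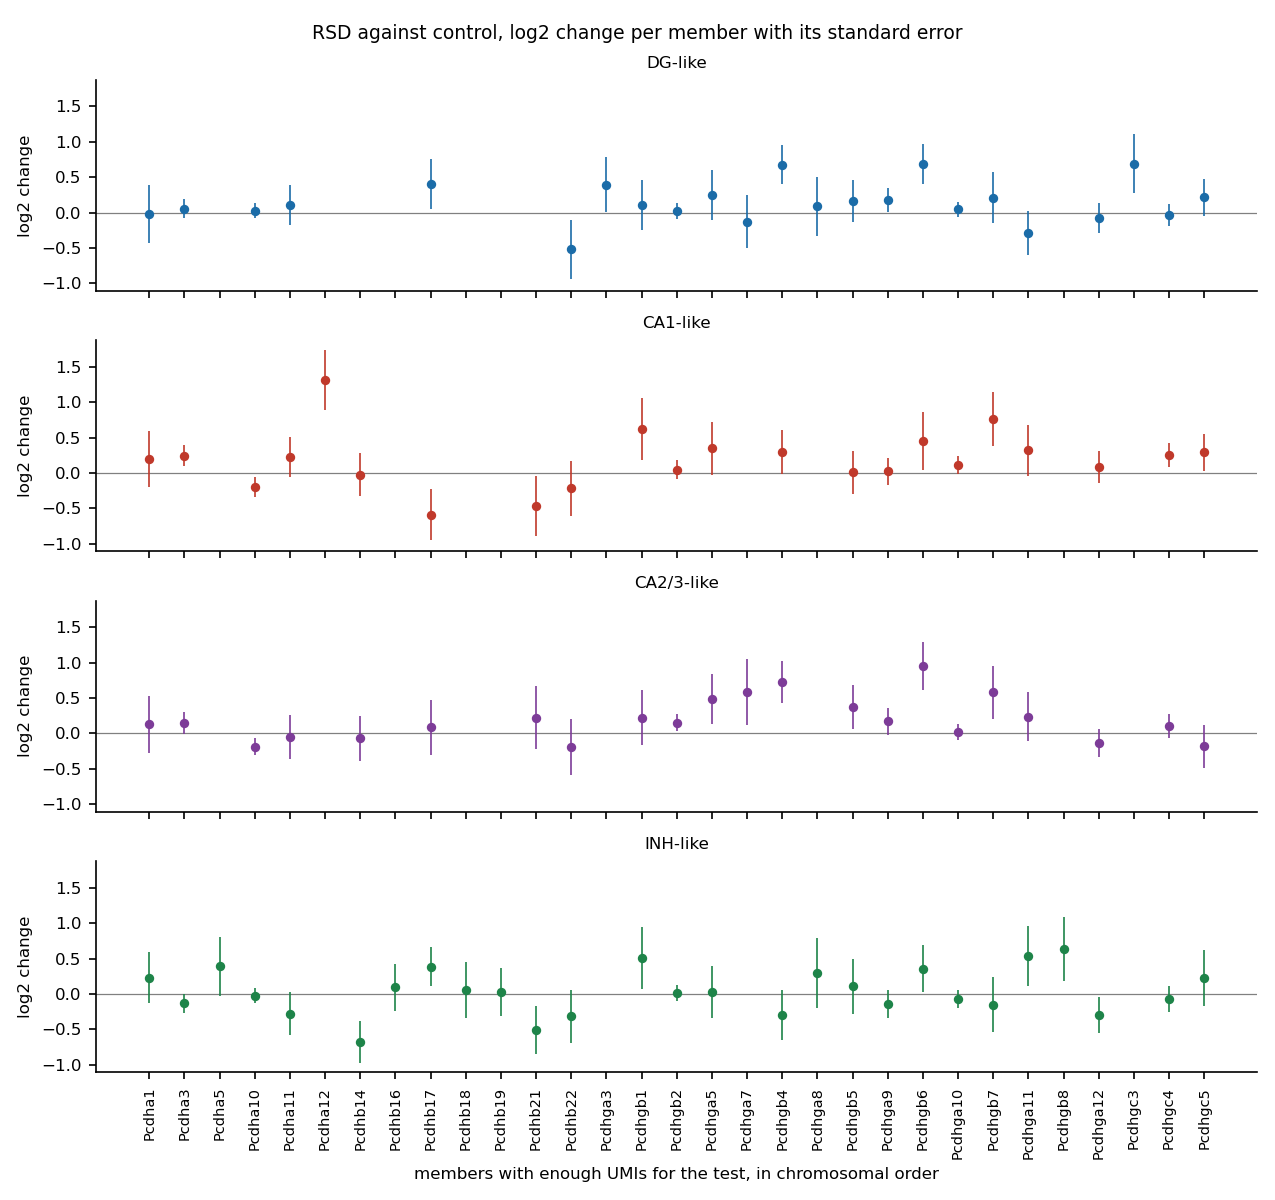
Log2 change after RSD of each member with enough UMIs for the test, in chromosomal order for 4 neuronal classes, with its standard error from the edgeR fit. Most Pcdhg points in CA1-like and CA2/3-like nuclei lie above 0, and no point passed the adjusted threshold.

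The smallest p belonged to another member in each class, but the same 2 genes, Pcdhgb4 and Pcdhgb6, were those under an unadjusted p of 0.05 in both DG-like and CA2/3-like nuclei. Pcdha12 in CA1-like nuclei was 1.95, 1.62, 1.29 and 1.85 CPM in the control Vehicle, PLX5622, IL-1R1+/+ and nIL-1R1-/- pools and 4.11, 1.79, 3.82 and 5.82 CPM in the RSD pools. The RSD pool was higher in each arm, but the RSD PLX5622 pool lay within the control range, and the log2 change was 1.31 ± 0.42 (SE, adjusted p = 0.154 by edgeR's quasi-likelihood test). These values rest on 61 UMIs in all, 2 to 15 per pool. Both PLX5622 pools held 2 and both Vehicle pools 8, so within each of these arms the pools differ only in total UMIs. Pcdhgb6 in CA2/3-like nuclei was 3.56, 0.865, 1.62 and 5.37 CPM in controls and 5.06, 1.03, 6.82 and 8.52 CPM after RSD, again higher in each arm with groups that overlapped, for a change of 0.96 ± 0.34 (edgeR adjusted p = 0.183). This rests on 1 to 50 UMIs per pool. Both PLX5622 pools held 1 UMI, so that arm again differs only in total UMIs. Pcdhgb4 in DG-like nuclei was 5.59, 4.90, 6.17 and 4.70 CPM in controls and 6.25, 4.40, 10.9 and 10.2 CPM after RSD, with high values in the RSD pools of the IL-1R1+/+ and nIL-1R1-/- arms alone (0.67 ± 0.28, edgeR adjusted p = 0.345). Its change in CA2/3-like nuclei was 0.73 ± 0.29 (edgeR adjusted p = 0.238), and that of Pcdhgb6 in DG-like nuclei was 0.69 ± 0.29 (edgeR adjusted p = 0.36). In both of these the control and RSD pools overlapped, and the RSD PLX5622 pool was below its control. Pcdhb14 in INH-like nuclei, given above for each pool, had a log2 change of -0.68 ± 0.29 (edgeR adjusted p = 0.519), with control values that spread from 4.02 to 10.9 CPM around an RSD range of 5.18 to 5.62 CPM.

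The Pcdhg sum was slightly higher after RSD. In CA2/3-like nuclei it was 239, 238, 238 and 224 CPM in the control Vehicle, PLX5622, IL-1R1+/+ and nIL-1R1-/- pools and 259, 260, 268 and 256 CPM after RSD. It was 299, 265, 296 and 284 CPM in controls and 333, 329, 328 and 303 CPM after RSD in CA1-like nuclei, and 298, 262, 301 and 301 CPM against 315, 308, 325 and 306 CPM in DG-like nuclei. The RSD pool was higher in 4 of 4 arms and the groups did not overlap in these 3 classes, with mean log2 differences of 0.15 ± 0.04, 0.18 ± 0.10 and 0.11 ± 0.09 (SD over arms). In INH-like nuclei the sum was higher in 3 of 4 arms (0.03 ± 0.12). Without the 4 members that carry a stretch of lowest identifier, the Pcdhg sum was 62.4, 42.4, 55.4 and 57.6 CPM in the control Vehicle, PLX5622, IL-1R1+/+ and nIL-1R1-/- pools and 61.8, 60.5, 73.6 and 70.3 CPM after RSD in CA2/3-like nuclei. It was 66.3, 42.1, 66.2 and 76.4 CPM against 81.7, 57.1, 93.9 and 74.9 CPM in CA1-like and 74.7, 51.4, 67.6 and 71.4 CPM against 77.1, 69.6, 82.7 and 80.1 CPM in DG-like nuclei. So the remaining members were higher after RSD in 3 of 4 arms in CA2/3-like and CA1-like nuclei and in 4 of 4 in DG-like nuclei, and the groups overlapped in each of these classes. This sum was chosen after seeing the data. The make-up of the classes also differed between control and RSD pools, most in the Vehicle and nIL-1R1-/- arms. The share of nuclei in the shallow cluster went from 36.8 to 56.5% in DG-like, 41.2 to 73.2% in CA1-like and 25.9 to 58.7% in CA2/3-like nuclei of the Vehicle arm, and from 19.7 to 38.4, 12.4 to 31.0 and 6.10 to 28.0% in the nIL-1R1-/- arm. It went from 30.3 to 27.1, 29.8 to 27.1 and 17.2 to 11.6% in the IL-1R1+/+ arm. In the PLX5622 arm the share went from 83.2 to 83.6, 88.2 to 92.1 and 81.1 to 83.8%. Over all pools, the Pcdhg sum was 321 CPM in the shallow and 301 CPM in the deep DG-like cluster, 297 and 301 CPM in the CA1-like clusters, and 277 CPM in the shallow against 231 to 253 CPM in the other CA2/3-like clusters. The part of this shift in the Pcdhg difference was not tested. Of the tested Pcdhg genes, 13 of 13 in CA1-like, 12 of 14 in CA2/3-like, 13 of 17 in DG-like and 9 of 15 in INH-like nuclei had a log2 change above 0, where 51.5, 49.6, 49.6 and 50.7% of all genes did. The Pcdhg pattern was chosen after its values were seen, it is a sum over members that share reads, and it has no test. The classes come from the same pools, so they are not independent of each other. Fewer nuclei and less RNA per nucleus cannot be told apart in summed counts, and CPM is a share of all UMIs in the class.

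**Figure D5:**
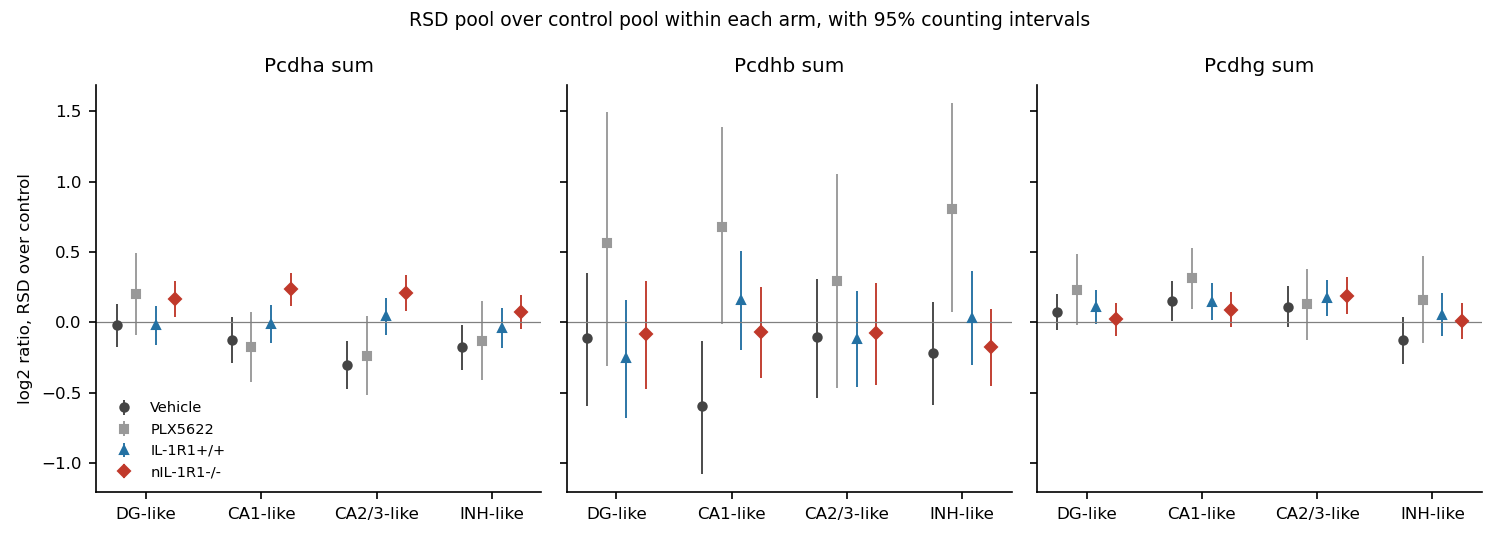
Log2 ratio of the RSD pool to the control pool of the same arm for the summed UMIs of each family in 4 neuronal classes, with 95% exact counting intervals, which do not cover the variation between mice. The Pcdhg ratios lie above 0 in 15 of 16 cases, whereas Pcdha and Pcdhb ratios fall on both sides. The 16 cases are the same pairs of pools seen in 4 classes and are not independent. All Pcdhg intervals in DG-like and INH-like nuclei include 0. So do those of the nIL-1R1-/- arm in CA1-like and of the Vehicle and PLX5622 arms in CA2/3-like nuclei.

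Pcdha and Pcdhb had no common direction after RSD. The Pcdha sum in CA1-like nuclei was 253, 244, 303 and 288 CPM in the control Vehicle, PLX5622, IL-1R1+/+ and nIL-1R1-/- pools and 232, 217, 300 and 339 CPM after RSD. It was higher after RSD in 1 of 4 arms there, 2 of 4 in DG-like, 2 of 4 in CA2/3-like and 1 of 4 in INH-like nuclei, with mean log2 differences from -0.07 to 0.08. Of the 4 arms, nIL-1R1-/- was the only one with a higher Pcdha sum after RSD in all 4 classes, and its difference from the other arms was not tested. The Pcdhb sum was higher in 1, 2, 1 and 2 of 4 arms in DG-, CA1-, CA2/3- and INH-like nuclei, with mean differences from 0.00 to 0.11 and SDs from 0.20 to 0.53.

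The nIL-1R1-/- genotype was compared with IL-1R1+/+ over a control and an RSD pool each, in the same edgeR fit. No member passed the adjusted threshold in any class, where 0.00849% of all genes did in DG-like nuclei and 0% did in CA1-, CA2/3- and INH-like nuclei. At an unadjusted p under 0.05 by edgeR there were 0 members in DG-like, CA1-like and INH-like nuclei and 2 in CA2/3-like nuclei, and DESeq2 called 0. That is 0, 0, 9.09 and 0% of the members tested in DG-, CA1-, CA2/3- and INH-like nuclei, against 2.01, 1.38, 2.38 and 1.9% of all genes. The 2 were Pcdha1 and Pcdhgb6. Pcdha1 in CA2/3-like nuclei was 3.00 and 3.98 CPM in the control and RSD IL-1R1+/+ pools and 1.29 and 1.70 CPM in the nIL-1R1-/- pools, which did not overlap, and the log2 change was -1.252 ± 0.52 (edgeR adjusted p = 1). It rests on 4 to 14 UMIs per pool, and in the other classes Pcdha1 differed by 0.09 to 0.40 the other way. The share of all genes whose genotype pools did not overlap was not counted. Pcdhgb6 in CA2/3-like nuclei was 1.62 and 6.82 CPM in IL-1R1+/+ and 5.37 and 8.52 CPM in nIL-1R1-/- pools (0.87 ± 0.40, edgeR adjusted p = 1). The members nearest to the threshold elsewhere were Pcdhga3 in DG-like nuclei (0.84 ± 0.48), Pcdha11 in CA1-like nuclei (0.72 ± 0.35) and Pcdhgb1 in INH-like nuclei (0.99 ± 0.57). The medians over the members were -0.01, 0.07, 0.01 and 0.06 in DG-, CA1-, CA2/3- and INH-like nuclei.

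The PLX5622 diet was compared with Vehicle in the same way. No member passed the adjusted threshold, where 0.127% of all genes did in DG-like, 0.0179% in CA1-like, 0.0934% in CA2/3-like and 0% in INH-like nuclei. At an unadjusted p under 0.05 by edgeR there were 1, 6, 1 and 1 members in DG-, CA1-, CA2/3- and INH-like nuclei, and DESeq2 called 0. The 6 in CA1-like nuclei were 27.3% of those tested, against 7% of all genes, and in DG-, CA2/3- and INH-like nuclei the shares were 4.35, 4.55 and 3.7% against 7.62, 7.34 and 5.6% of all genes. All 6 were Pcdhg genes, whose models overlap and share reads, so they cannot be counted as separate genes against the share over all genes. Of the 6, 5 had a negative and 1 a positive log2 change. Among them Pcdhgb2 was 86.7 and 99.7 CPM in the control and RSD Vehicle pools and 117 and 130 CPM in the PLX5622 pools (0.47 ± 0.19, edgeR adjusted p = 0.615). Pcdhgc4 was 32.2 and 35.0 CPM in Vehicle and 17.8 and 19.6 CPM in PLX5622 pools (-0.80 ± 0.27, edgeR adjusted p = 0.458). Pcdhgb1 was 4.14 and 4.63 against 0.809 and 0.893 CPM (-2.33 ± 0.96, edgeR adjusted p = 0.621), on 1 UMI in each PLX5622 pool. The Vehicle and PLX5622 pools did not overlap in these 3 genes, nor in the other members among the 6, with Pcdhgb2 higher and the rest lower under PLX5622. How many of all genes do so with 2 pools against 2 was not counted. The 6 were picked by their p in these same pools, so the lack of overlap is no separate evidence. The other members among the 6 were Pcdhga9 (-0.66 ± 0.31), Pcdhga11 (-1.58 ± 0.74) and Pcdhgb7 (-1.75 ± 0.82). In the control and RSD PLX5622 pools, Pcdhga11 rests on 1 and 3 UMIs and Pcdhgb7 on 2 and 1. The medians over the members tested were -0.16, -0.19, -0.005 and -0.54 in DG-, CA1-, CA2/3- and INH-like nuclei, beside 0.01, 0.02, 0.02 and 0.00 over all genes, and 20 of 27 members in INH-like nuclei were below 0. In INH-like nuclei Pcdhgb2 was again higher, at 95.2 and 101 CPM against 75.0 and 72.5 CPM (0.49 ± 0.18, edgeR adjusted p = 0.863). Pcdhga11 in DG-like nuclei was 6.21 and 4.58 CPM in Vehicle and 2.45 and 0.881 CPM in PLX5622 pools (-1.73 ± 0.75, edgeR adjusted p = 0.598), the latter on 2 and 1 UMIs. Pcdhgb6 in CA2/3-like nuclei was 3.56 and 5.06 against 0.865 and 1.03 CPM (-2.14 ± 0.90, edgeR adjusted p = 0.622), on 1 UMI in each PLX5622 pool. The median depth per nucleus was 598 and 628 UMIs in the PLX5622 pools and 2563 and 1326 UMIs in the Vehicle pools, and its part in these differences was not tested. The make-up of the CA1-like class differed too. Its shallow cluster held 88.2 and 92.1% of the nuclei in the control and RSD PLX5622 pools and 41.2 and 73.2% in the Vehicle pools. The part of this make-up was not tested either.

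Other genes of the pathway were followed as fixed lists. Of 17 regulators of the cluster's chromatin (CTCF, cohesin and its loaders, DNA methyltransferases and silencers such as Smchd1), 16 were tested in each class. Of 15 cytoplasmic partners, among them the kinases Ptk2 and Ptk2b and the WAVE complex that drives branched actin, 14 or 15 were tested, and of 12 non-clustered protocadherins 9 or 10. By edgeR, 0 genes of any list passed the adjusted threshold for RSD, genotype or diet in any class. At an unadjusted p under 0.05 for RSD in CA1-like nuclei there were 3 of 16 regulators, 3 of 14 partners and 6 of 9 non-clustered protocadherins, where 15.7% of all genes were. The non-clustered protocadherins had 3 of 10 in DG-like, 4 of 9 in CA2/3-like and 0 of 10 in INH-like nuclei, where 11.6, 15.7 and 8.78% of all genes were. The smallest adjusted p was 0.0978 by edgeR, for Pcdh15 (-0.59 ± 0.15) and for the WAVE subunit Wasf1 (-0.49 ± 0.13), both after RSD in CA1-like nuclei. Ctcf itself had a log2 change after RSD of -0.09 ± 0.12 in DG-like, 0.30 ± 0.17 in CA1-like, -0.11 ± 0.13 in CA2/3-like and 0.02 ± 0.14 in INH-like nuclei. For RSD the median log2 change of the list was 0.05 for the regulators, -0.17 for the partners and -0.34 for the non-clustered protocadherins in CA1-like nuclei, beside 0.21 for the clustered members and 0.01 for all genes.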

How the data were processed

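Nuclei were barcoded with the Parse split-pool kit, and the authors aligned reads to mm39 with the Parse pipeline and analysed them in Seurat 4.1.1. The deposited matrices hold UMI counts per gene and nucleus, not normalized, for 4 sublibraries by 8 pools. The annotation release and the handling of reads that fit several genes are not given in the sources used here. The members and lists were chosen with earlier results of these data known.

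Nuclei over 20% mitochondrial UMIs were removed. The 58 genes were left out of the 2000 variable genes, and 30 principal components, 15 neighbours and Leiden clustering (leidenalg 0.10.2, igraph 0.11.9, scikit-learn 1.9.0, resolution 1.0) gave clusters. A cluster was named "X-like" from at least 3 fixed markers. The conditions that a marker of its own be among its top 10 genes and that it hold 50 nuclei were added after the clusters were seen. No doublet caller was run, and clusters led by another type's markers stayed unnamed. Unnamed clusters with CA1 as the best score held 8.78 to 15.6% of the nuclei of a pool, those with CA2/3 0.0955 to 0.566% and those with INH 1.76 to 3.47%. Names may differ from the study's.

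UMIs were summed per pool and class. CPM scales them to the total UMIs of the pool and class, and classes with under 20 nuclei in a pool have no value there. edgeR 4.0.16 (TMM, filterByExpr, quasi-likelihood test, R 4.3.3) was fitted to all 8 pools with RSD and arm, and called genes at an adjusted p under 0.05, with DESeq2 1.42.0 as the alternative. The arm is the design's own pair of control and RSD pool. Deviations of same-arm pools correlated at 0.085 to 0.244, and the block was kept from the design. Sign-flip tests planned for sums and C-type shares are not printed, because no p is given for a sum over the members, and pool counts stand in their place. Scripts were tested on simulated data. Intervals are exact and cover counting error only. Gene models were GENCODE vM39 on GRCm39.

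Named genes were the family sums, the 5 C-type members, the 3 other members with the most UMIs and the 1 with the fewest in each family, and the member with the smallest p in each comparison. Other genes were named where a count of 7 or fewer needed its members, after their values were seen, as were the genes given per kb.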

Additional observations from a re-analysis of the deposited data

Results flagged for a closer look

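In 4 of 58 groups of 4 pools, a pool stood apart from the other 3 by more than the critical gap, a rate near the 1 in 20 that chance gives. The Pcdhg sum in DG-like nuclei was 262.0 CPM in the Control PLX5622 pool, where the next control pool had 298.4 CPM. In CA1-like nuclei it was 302.5 CPM in the RSD nIL-1R1-/- pool, the next RSD pool having 327.6 CPM, and in CA2/3-like nuclei 224.0 CPM in the Control nIL-1R1-/- pool, the next control pool having 237.5 CPM. Pcdha10 in INH-like nuclei was 181.8 CPM in the RSD Vehicle pool and 199.8 CPM in the next RSD pool. Single members entered only where every pool had at least 20 UMIs.

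In 6 of 324 sets of ratios, the log2 ratio of one arm or condition lay on the other side of 0 from another with counting intervals that both left out 0. The difference was not tested against the variation between mice. After RSD the Pcdha sum in CA2/3-like nuclei moved by 0.208 in the nIL-1R1-/- arm and -0.301 in the Vehicle arm, and Pcdha3 there by 0.618 and -0.424. Pcdha3 in DG-like nuclei moved by 0.717 in the PLX5622 arm and -0.362 in the IL-1R1+/+ arm. The Pcdhb sum in CA1-like nuclei was higher with PLX5622 than with Vehicle among RSD pools (0.616) and lower among control pools (-0.654). Pcdhgb6 in CA1-like nuclei moved by 1.859 after RSD in IL-1R1+/+ and by -1.154 in nIL-1R1-/-, which is also a genotype ratio of 1.421 among control pools and -1.591 among RSD pools, on 8 to 41 UMIs per pool.

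Gm38666, a predicted gene whose span covers most of the cluster and which was not among the members, held 41729 UMIs over all nuclei. It was 202 CPM in DG-like, 341 in CA1-like, 275 in CA2/3-like and 412 CPM in INH-like nuclei of the RSD PLX5622 pool, where the next highest pool had 134, 210, 189 and 274 CPM.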

How the results depend on the processing

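No member was called in any of 148 fits over RSD, genotype and diet in 4 classes, 136 of them alternatives: other size factors, no low-count filter, DESeq2, other clusterings, shallow nuclei left out, single pairs or pools left out and 4 pools alone. Without the arm as replicate block the count for RSD was also 0 members in each class. The number of all genes called moved between 0 and 299 for RSD, 0 and 43 for genotype and 0 and 130 for diet. Of 432 alternatives for the class differences, 414 stayed within 1 SD of the pool differences, 18 moved, and none reversed a difference that had its direction in 8 of 8 pools. Leaving out 1 pool or both PLX5622 pools cannot move a mean over 8 pools by 1 SD. Those alternatives therefore had to stay within it, and the count of 414 says nothing about them. With 1 pool left out, the INH-like minus DG-like Pcdhb difference ran from 0.99 to 1.07. With nuclei thinned to 1000 UMIs, the INH-like Pcdhb excess was 1.27 over DG-like and 0.98 over CA2/3-like nuclei, the Pcdhg difference 0.10 for CA1-like minus DG-like and -0.18 for CA2/3-like minus DG-like nuclei, and the Pcdhg C-type share -2.47 points for CA2/3-like minus DG-like nuclei. 2 alternatives were chosen after seeing the data. With clusters taken by best marker score, CA2/3-like minus CA1-like nuclei was -0.13 for Pcdha and -0.21 for Pcdhg, and CA1-like minus DG-like nuclei -0.0676 for Pcdhg. Without the members that carry a stretch of lowest identifier, INH-like minus DG-like nuclei was 0.21 for Pcdha, CA1-like minus DG-like -0.0638 and CA2/3-like minus CA1-like -0.19 for Pcdhg, and the Pcdhg C-type share -2.22 points for CA2/3-like minus DG-like nuclei. The Pcdha C-type share was then 6.46, 5.75 and 3.604 points above DG-like in CA1-, CA2/3- and INH-like nuclei, and it was -0.71 points for CA2/3-like minus CA1-like, -2.86 for INH-like minus CA1-like and -2.15 for INH-like minus CA2/3-like nuclei, by construction over far fewer UMIs (491 to 571 per class). The causes of the other moves were not tested. Depth limits single members: median standard errors in the RSD fit were 0.29 to 0.34 on the log2 scale.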
